A study of Mus musculus with 16 samples.

Results

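The Ets family of transcription factors was followed through 9 of its genes, Spi1, Spib, Ets1, Ets2, Fli1, Elf1, Elk3, Etv6 and Gabpa, in early B-lineage cells of wild-type BALB/c mice. Probes were matched to the genes first by the RefSeq accession in the array's annotation. Failing that, the symbol given there was used, older names included (Sfpi1 for Spi1, Tel for Etv6). This gave 14 of the 41174 probes on the array, and all 14 passed the filter on dim probes. The 4 groups, each of 4 arrays, were Fr.B/C and Fr.A of fetal liver, followed by Fr.B/C and Fr.A of bone marrow. In the Hardy scheme Fr.A holds pre-pro-B cells and Fr.B/C the pro-B cells that follow them. Each fetal liver sort used the embryos, on average 8, of a mouse at day 16 of gestation, and each bone marrow sort pooled femurs and tibias of 16 adult females, so a sample is an average over animals. Per the labels, every sort gave 1 sample of each fraction and 4 sorts were made per tissue, but the labels do not say which arrays carry which sort. RNA of each sample was hybridised beside a common reference RNA of 6 cell lines, and values are log2 ratios of sample over reference, so levels of different probes cannot be set against each other.

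Ets proteins share a DNA-binding domain, the Ets domain, that recognises a GGAA core, and members differ in the flanking bases they prefer, in their partners and in whether they activate or repress. In blood, PU.1 (encoded by Spi1) is known for its dose-dependent part in the choice between myeloid and B-lineage fates, and the related Spi-B shares many of its sites and its partners IRF4 and IRF8. Ets1, Fli1, Elf1 and GABP act on genes of lymphoid cells, megakaryocytes and mitochondria, while Etv6 and Elk3 are mainly known as repressors.

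Promoter windows are given for the 3 matched genes with the widest stage or tissue differences, to show how often the family's own core occurs in them. They come from RefSeq on GRCm38.p6, run from 250 bases before to 50 bases after a transcript start, read 5′ to 3′ on the gene's strand, and have each GGAA, or its complement TTCC, in capitals. The windows are chr7:44532022-44532321 (minus strand) for Spib, chr16:95702157-95702456 (plus strand) for Ets2 and chr6:134035450-134035749 (plus strand) for Etv6.
Spib: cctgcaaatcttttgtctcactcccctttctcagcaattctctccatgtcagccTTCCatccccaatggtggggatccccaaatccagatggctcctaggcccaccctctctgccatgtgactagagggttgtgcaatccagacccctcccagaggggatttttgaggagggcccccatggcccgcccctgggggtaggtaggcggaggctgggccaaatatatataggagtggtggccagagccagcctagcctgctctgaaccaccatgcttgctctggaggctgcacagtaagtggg
Ets2: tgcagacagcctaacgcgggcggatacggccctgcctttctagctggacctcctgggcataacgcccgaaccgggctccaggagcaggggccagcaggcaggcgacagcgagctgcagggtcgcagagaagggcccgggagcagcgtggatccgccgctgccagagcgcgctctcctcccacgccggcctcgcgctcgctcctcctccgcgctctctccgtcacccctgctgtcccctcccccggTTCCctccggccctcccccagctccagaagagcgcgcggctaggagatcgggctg
Etv6: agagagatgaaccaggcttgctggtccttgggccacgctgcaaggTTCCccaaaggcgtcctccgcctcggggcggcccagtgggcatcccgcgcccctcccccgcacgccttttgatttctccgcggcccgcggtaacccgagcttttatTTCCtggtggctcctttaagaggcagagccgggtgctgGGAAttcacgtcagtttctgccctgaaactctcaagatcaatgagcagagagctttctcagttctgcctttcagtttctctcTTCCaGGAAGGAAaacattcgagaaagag
The core occurs 1 time in the window of Spib, 1 time in that of Ets2 and 6 times in that of Etv6, counting both strands. It is a common word: 96% of the 32851 promoter windows in the same table hold it, with a median of 3 matches. The longer word CCGGAAGT, searched on both strands and itself containing the core, is in 3.89% of all windows and in none of the 7 windows found for 6 of the 9 genes (Spib, Ets2, Etv6, Elk3, Gabpa and Elf1, which has 2 windows). A match is a description of the sequence and not evidence of binding.

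The arrays measured the genes with some margin. Between 52.9% and 68.3% of probes per array were well above background, and no probe of the 9 genes was saturated. The probes used for the 9 genes were well above background on all 16 arrays, except that of Spi1, which was so on 3 of 4 arrays of fetal liver Fr.B/C. Of 8 tested B-lineage markers, 6 were higher in Fr.B/C than in Fr.A in either tissue, whereas Rag1 fell in both tissues and Ptprc fell in fetal liver. Over all genes 10.1% rose in fetal liver and 13.5% in bone marrow. Between tissues 0 of the 8 were higher in fetal liver, and 4 were lower in Fr.B/C and 2 in Fr.A, where 14.6% and 17.4% of all genes were lower. The median log2 ratio of these markers was 0.84 to 1.08 in fetal liver Fr.B/C, against 1.62 to 2.03 in bone marrow Fr.B/C. It was -0.10 to 0.06 in fetal liver Fr.A, against 0.69 to 1.06 in bone marrow Fr.A. Cd79a, Vpreb1 and Ebf1 were well above background on every array, whereas the probe of Pax5 was so on only 3. Erythroid markers moved with the tissue. In Fr.A 10 of 11 were higher in fetal liver than in bone marrow, where 12.2% of all genes were higher. In Fr.B/C 9 of 11 were higher, where 13.9% of all genes were. The median log2 ratio of the erythroid markers was 0.82 to 2.90 on fetal liver Fr.A arrays and 1.08 to 2.60 on fetal liver Fr.B/C arrays. In bone marrow it was 0.06 to 0.36 in Fr.A and 0.13 to 0.29 in Fr.B/C. Of the 6 hepatocyte markers, Alb, Ttr, Apoa1 and Apoa2 were well above background on at most 2 arrays, Fgb on 8 and Afp on all 16. Afp fell between stages by 1.66 in fetal liver and by 2.32 in bone marrow, and Fgb was 0.24 higher in fetal liver than in bone marrow in Fr.B/C. No scan session held arrays of both tissues, and the effects of tissue and of session cannot be told apart. Nor did any session hold arrays 1 or 2 together with arrays 3 or 4. Differences between these array pairs therefore cannot be told apart from session either. In all groups, fewer cells of a type and less RNA per cell cannot be told apart.

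**Figure D1:**
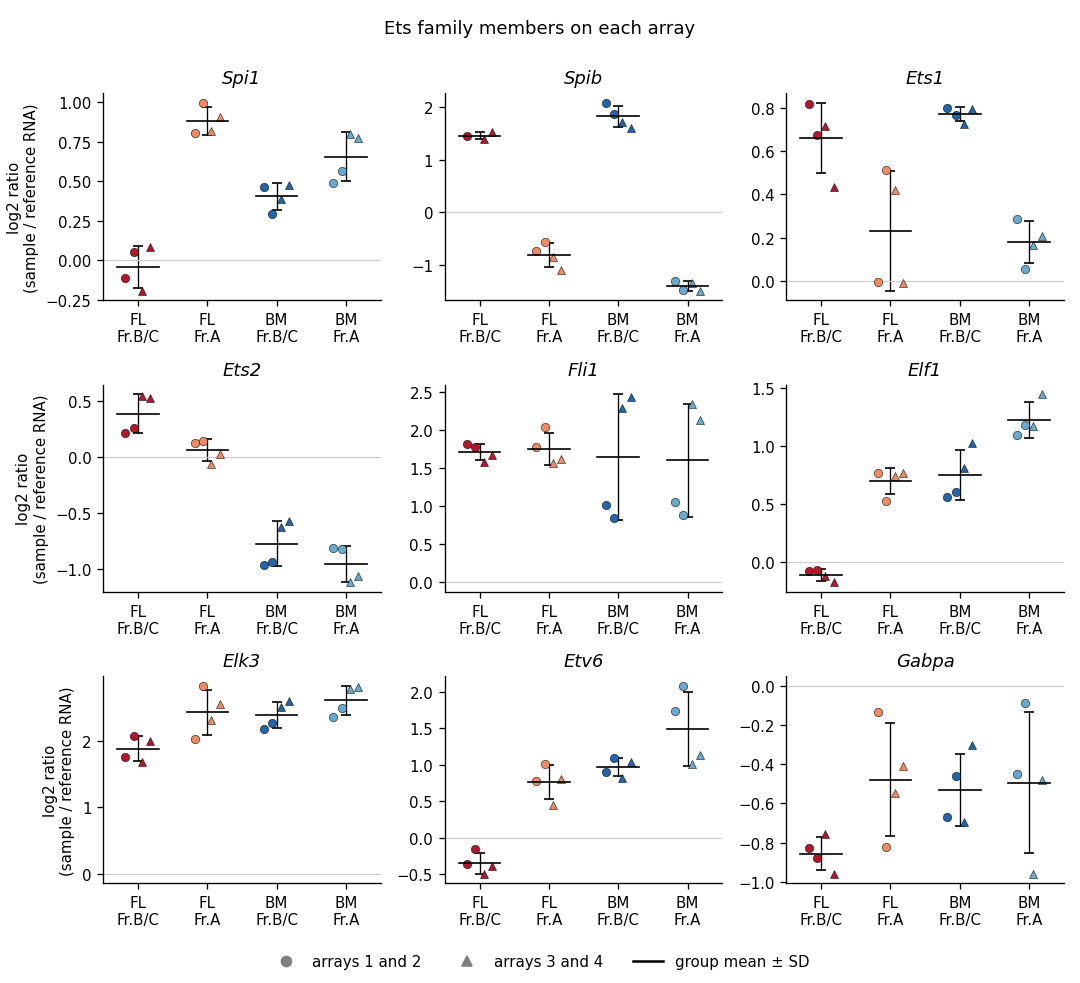
Log2 ratio of sample over reference RNA (vertical axes) of the 9 Ets genes on each of the 16 arrays, by group (FL, fetal liver; BM, bone marrow); circles are arrays 1 and 2 and triangles arrays 3 and 4 of a group, lines are group means and bars SD. Spib separates the fractions, Ets2 separates the tissues, and the bone marrow arrays of Fli1 fall into 2 levels by array number.

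From Fr.A to Fr.B/C, Spi1 and its close relative Spib went opposite ways. Spib was the member that differed most between stages, higher in Fr.B/C by 2.24 log2 units in fetal liver and by 3.21 in bone marrow, and Ets1 was higher in Fr.B/C in both tissues. Spi1, Elf1 and, by 1 of its 2 probes, Etv6 fell in both tissues, and Elk3 fell in fetal liver. In fetal liver 2 of the 9 genes rose and 4 fell, where 22.8% of the 22327 genes and unnamed transcripts tested passed (10.1% higher and 12.8% lower). In bone marrow 2 rose and 3 fell, where 32.4% of all passed (13.5% higher and 18.9% lower). A gene passed at a limma adjusted p under 0.05 over all genes tested. The median difference of the 9 was -0.38 in fetal liver and -0.04 in bone marrow, beside 0.00131 and -0.04 over all genes. With array pairs averaged into 2 values per group, 4 calls were left in fetal liver (Ets1 and Elk3 lost) and 2 in bone marrow (Spib and Ets1).

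Spib encodes Spi-B, a lymphoid-restricted relative of PU.1. Its log2 ratio was 1.44, 1.40 and 1.52 on the 3 usable fetal liver Fr.B/C arrays, against -0.73, -0.55, -0.84 and -1.08 in fetal liver Fr.A. The spot of the fetal liver Fr.B/C array numbered 2 was marked as an outlier by the scanner software and dropped. It was 2.08, 1.87, 1.72 and 1.61 in bone marrow Fr.B/C, against -1.29, -1.46, -1.33 and -1.48 in bone marrow Fr.A. Every Fr.B/C array thus lay above every Fr.A array, by at least 1.95 log2 units. The fitted difference between stages was 2.24 ± 0.13 (SE, n = 3 and 4, 4.74-fold, limma adjusted p = 9.73e-09) in fetal liver and 3.21 ± 0.12 (n = 4 each, 9.25-fold, limma adjusted p = 7.39e-11) in bone marrow. Within pairs of arrays with the same number it was 2.18, 2.24 and 2.61 in fetal liver and 3.05 to 3.37 in bone marrow. Spib also stands in the list of plasmacytoid dendritic cell markers, of which 5 of 9 tested fell and 1, Spib itself, rose between stages in each tissue. Of all genes, 12.8% fell in fetal liver and 18.9% in bone marrow. The part of B-lineage markers in the Spib differences between stages and tissues was not tested.

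Spi1 encodes PU.1. Its log2 ratio was -0.11, 0.05, -0.19 and 0.08 in fetal liver Fr.B/C, against 0.81, 1.00, 0.82 and 0.91 in fetal liver Fr.A. In bone marrow it was 0.46, 0.29, 0.39 and 0.47 in Fr.B/C, against 0.49, 0.57, 0.80 and 0.77 in Fr.A. The fractions did not overlap in either tissue, but in bone marrow the highest Fr.B/C array lay 0.01 below the lowest Fr.A array. Spi1 fell by 0.92 ± 0.09 (SE, 1.90-fold, limma adjusted p = 1.31e-06) in fetal liver and by 0.25 ± 0.09 (1.19-fold, limma adjusted p = 0.0396) in bone marrow. Its probe is dim, and its difference moved with the processing of the signals: with the scanner software's processed signals the fetal liver value was -1.91 and with the authors' deposited table -1.72. The bone marrow value was -0.45 in either, where it no longer passed (limma adjusted p = 0.142 and 0.0684), and it also failed without bone marrow Fr.A array 3 (-0.19) or 4 (-0.23), bone marrow Fr.B/C array 2 (-0.20), 3 (-0.26) or 4 (-0.26), or fetal liver Fr.A array 3 (-0.25, limma adjusted p = 0.0502). Myeloid markers moved with Spi1: 8 of 12 fell in fetal liver and 4 of 12 in bone marrow, the rest not passing. Of all genes 12.8% fell in fetal liver and 18.9% in bone marrow. The part of myeloid markers in the Spi1 difference was not tested. Their median log2 ratio was 0.18 to 0.68 in fetal liver Fr.B/C against 2.02 to 2.26 in fetal liver Fr.A, and 0.52 to 1.48 in bone marrow Fr.B/C against 1.08 to 2.02 in bone marrow Fr.A.

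The stage differences of these 2 genes also differed between tissues, which no other member showed at the threshold by the probe used. The interaction, the stage difference in fetal liver minus that in bone marrow, was -0.67 ± 0.13 for Spi1 (limma adjusted p = 0.00377) and -0.96 ± 0.17 for Spib (limma adjusted p = 0.00339): Spi1 fell more, and Spib rose less, in fetal liver. All genes together passed this test in 7.52% of cases, 2.99% lower and 4.53% higher. The labels do not tie the array number to a sort, and arrays of equal number share a dye. With the array number within a tissue as a block, both calls stayed (limma adjusted p = 0.00199 for Spi1 and 0.00232 for Spib). That block took the genes that passed to 3651, against 1680 without it. Neither passed with arrays 1 and 2, and 3 and 4, of a group averaged into 2 values (limma adjusted p = 0.217 for Spi1 and 0.17 for Spib), with median centring (0.0879 and 0.218), or on either dye alone. For Spi1 the interaction was -1.47 with processed signals and -1.27 with the deposited table, both past the threshold. On arrays 1 and 2 of every group alone Spib passed and Spi1 did not (limma adjusted p = 0.0559). Etv6 (-0.59, limma adjusted p = 0.187) passed without bone marrow Fr.A array 2 (-0.77, limma adjusted p = 0.044) and with scan session as a random block (-0.63, limma adjusted p = 0.0477) or a fixed block (-0.67, limma adjusted p = 0.0251). It also passed on arrays 3 and 4 of every group alone (-0.93, limma adjusted p = 0.00058), where 7021 genes passed, against 1680 on all arrays. With its kept probes averaged the interaction of Etv6 was -0.20 (limma adjusted p = 0.458). In the fit to all probes, of which 6.74% passed, 2 of 3 probes that spell out the name of Ets1 had interactions of -0.52 and -0.54 (limma adjusted p = 0.0404 and 0.0472).

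**Figure D2:**
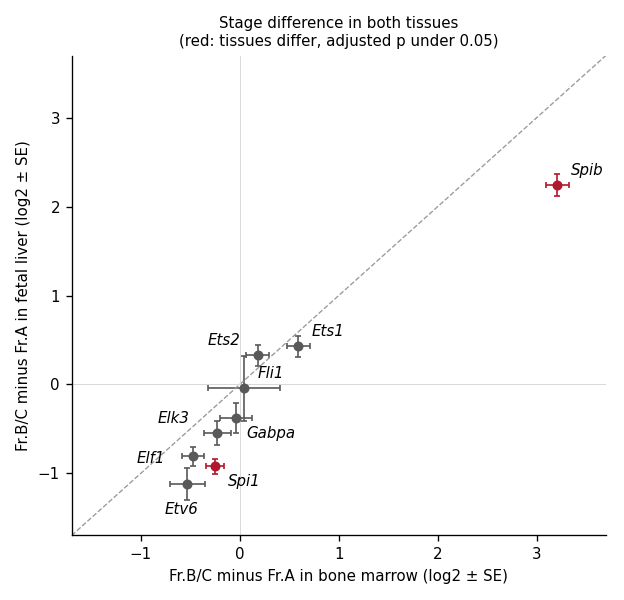
Difference between Fr.B/C and Fr.A (log2, with SE bars) in bone marrow (horizontal axis) and fetal liver (vertical axis) for each of the 9 genes; the dashed line marks equal differences. Spib (2.24 in fetal liver and 3.21 in bone marrow) and Spi1 (-0.92 in fetal liver and -0.25 in bone marrow), in red, are the genes whose difference itself differed between tissues.

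Ets1, a factor of lymphoid cells, was higher in Fr.B/C by every probe. The probe that carries its symbol is dim, and gave 0.82, 0.68, 0.72 and 0.43 in fetal liver Fr.B/C, against -0.01, 0.51, 0.42 and -0.01 in fetal liver Fr.A. It gave 0.80, 0.77, 0.73 and 0.79 in bone marrow Fr.B/C, against 0.28, 0.05, 0.17 and 0.21 in bone marrow Fr.A. The bone marrow fractions were separate, whereas in fetal liver the lowest Fr.B/C array lay below the highest Fr.A array. The difference was 0.43 ± 0.12 (SE, limma adjusted p = 0.0147) in fetal liver and 0.59 ± 0.12 (limma adjusted p = 0.00108) in bone marrow. With processed signals these were 1.13 and 1.29, and with the deposited table they were 0.87 and 1.19. The fetal liver call was lost without fetal liver Fr.A array 1 (0.33, limma adjusted p = 0.0557) or array 4 (0.36, limma adjusted p = 0.0604). A further 3 probes spell out the full name of Ets1 and fell outside the rule. They were brighter and rose in Fr.B/C by 0.71, 0.84 and 1.28 in fetal liver and by 1.34, 1.38 and 1.80 in bone marrow, each passing in a fit to all 27522 probes, of which 22.2% passed in fetal liver and 31.4% in bone marrow.

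Elf1, an activator in lymphoid and myeloid cells, fell between stages by its brightest probe. It was -0.08, -0.06, -0.12 and -0.17 in fetal liver Fr.B/C, against 0.77, 0.53, 0.74 and 0.76 in fetal liver Fr.A. In bone marrow it was 0.56, 0.61, 0.81 and 1.03 in Fr.B/C, against 1.10, 1.18, 1.17 and 1.45 in Fr.A. The fractions did not overlap in either tissue, and fetal liver Fr.B/C was below all other groups. Elf1 fell by 0.81 ± 0.11 (SE, 1.75-fold, limma adjusted p = 4.01e-05) in fetal liver and by 0.47 ± 0.11 (1.39-fold, limma adjusted p = 0.00292) in bone marrow. Its second, dim probe differed by -0.07 and 0.26 and did not pass, so with the probes averaged the bone marrow value was -0.11 and not called and the fetal liver value was -0.44. A further probe that spells out its name, outside the rule, fell by 0.73 in fetal liver and by 1.42 in bone marrow and passed in both.

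Etv6 (Tel), a repressor needed for haematopoiesis in the adult marrow, had 2 probes that disagreed. The probe used, slightly the brighter, gave -0.36, -0.16, -0.50 and -0.39 in fetal liver Fr.B/C, against 0.78, 1.02, 0.45 and 0.81 in fetal liver Fr.A. It gave 0.91, 1.09, 0.82 and 1.04 in bone marrow Fr.B/C, against 1.74, 2.09, 1.01 and 1.14 in bone marrow Fr.A. Fetal liver fractions were well separated, and bone marrow fractions overlapped, with Fr.A arrays 1 and 2 above all others. It fell by 1.12 ± 0.18 (SE, limma adjusted p = 0.000208) in fetal liver and by 0.53 ± 0.18 (limma adjusted p = 0.0309) in bone marrow. The bone marrow call was lost on leaving out bone marrow Fr.A array 1 (-0.40) or 2 (-0.35), or any one of the 4 bone marrow Fr.B/C arrays (-0.55 to -0.52), and was -0.14 on arrays 3 and 4 alone. The other probe, annotated with the RefSeq transcript of Etv6, differed by -0.04 ± 0.13 in fetal liver and by -0.23 ± 0.13 in bone marrow and did not pass. With the probes averaged the differences were -0.58 and -0.38, both past the threshold.

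Elk3 (Net), a ternary complex factor that represses targets of the serum response factor, was lower in Fr.B/C of fetal liver. It was 1.76, 2.07, 1.68 and 1.99 in fetal liver Fr.B/C, against 2.03, 2.82, 2.31 and 2.55 in fetal liver Fr.A. In bone marrow it was 2.17, 2.26, 2.51 and 2.59 in Fr.B/C, against 2.36, 2.50, 2.78 and 2.81 in Fr.A. The fractions overlapped in both tissues. Elk3 fell by 0.55 ± 0.14 (SE, limma adjusted p = 0.00732) in fetal liver, and its second probe fell by 0.53 ± 0.13. The bone marrow value, -0.23 ± 0.14, did not pass (limma adjusted p = 0.234). With the array number within a tissue as a block it did (limma adjusted p = 0.0446), the 4 pairs of equal number ranging from -0.27 to -0.19. It did not pass with array pairs averaged and a set term (limma adjusted p = 0.338). The fetal liver call was lost when array pairs were averaged (limma adjusted p = 0.0967) and on either dye alone.

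The 3 remaining members did not pass between stages. Ets2, a target and effector of Ras signalling, differed by 0.33 ± 0.12 in fetal liver (limma adjusted p = 0.0571) and 0.18 ± 0.12 in bone marrow. In fetal liver Ets2 passed without Fr.B/C array 1 (0.39, limma adjusted p = 0.0441) or 2 (0.38, limma adjusted p = 0.049), and with scan session as a random block (limma adjusted p = 0.0329) or a fixed block (limma adjusted p = 0.0496). On arrays 3 and 4 of every group alone it passed in both tissues, at 0.55 (limma adjusted p = 0.000369) in fetal liver and 0.49 (limma adjusted p = 0.000638) in bone marrow, whereas on arrays 1 and 2 alone it was 0.10 and -0.13 and did not pass. Residuals of arrays 3 and 4 of a group correlated at r = 0.58 to 0.667, so p-values on these arrays alone may be too small. There 9417 genes passed in fetal liver and 10189 in bone marrow, against 5095 and 7227 on all arrays. Fli1, a factor of megakaryocytes and lymphocytes, differed by -0.04 and 0.04, each with an SE of 0.36. Gabpa, the DNA-binding subunit of GABP, was -0.83, -0.88, -0.76 and -0.96 in fetal liver Fr.B/C, against -0.13, -0.82, -0.55 and -0.41 in fetal liver Fr.A, by its brightest probe. In bone marrow that probe gave -0.67, -0.46, -0.69 and -0.30 in Fr.B/C, against -0.45, -0.09, -0.96 and -0.48 in Fr.A. The fetal liver fractions overlapped, since Fr.A array 2 lay among the Fr.B/C arrays. The difference of -0.38 ± 0.17 (limma adjusted p = 0.125) passed without that array (-0.52, limma adjusted p = 0.0295). It also passed with the array number within a tissue (limma adjusted p = 0.0353) or scan session (limma adjusted p = 0.0489) as a fixed block. It did not pass with array pairs averaged and a set term (limma adjusted p = 0.153). The other 2 probes of Gabpa went the opposite way and passed, higher in Fr.B/C by 0.45 and 0.37 in fetal liver and by 0.46 and 0.67 in bone marrow, so no direction can be given for the gene.

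**Figure D3:**
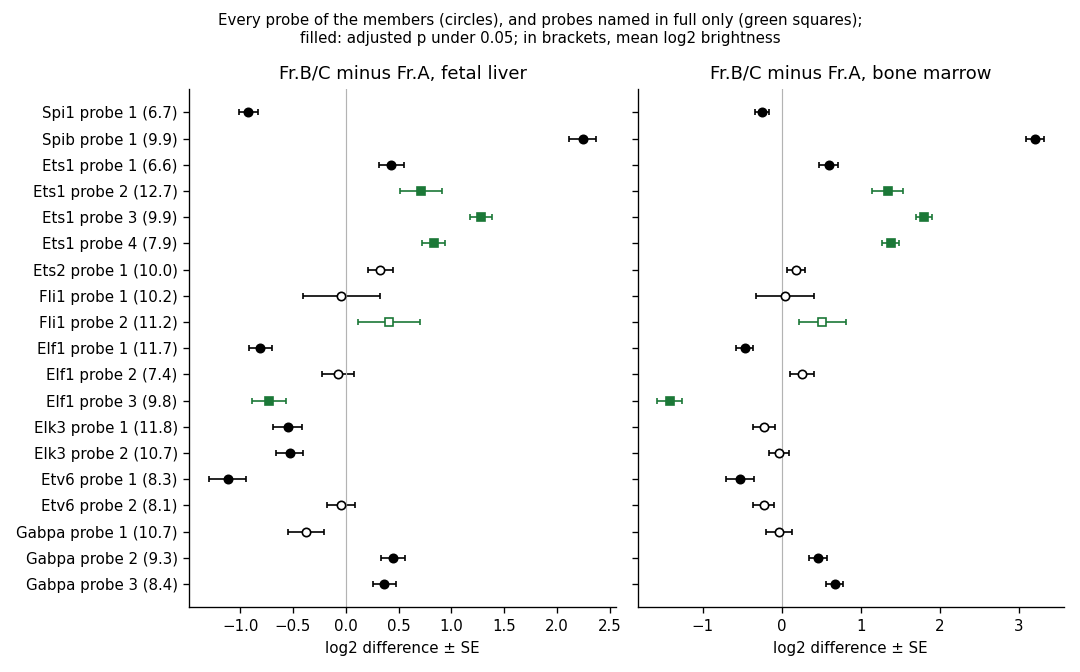
Difference between Fr.B/C and Fr.A (log2, horizontal axes, with SE bars) in fetal liver and bone marrow for the 14 probes found by accession or symbol (circles) and the 5 that spell out a member's full name (green squares). Filled symbols passed the adjusted p threshold in the fit to all probes, and the number in brackets is the mean log2 brightness. The 4 probes of Ets1 lie right of 0 in both panels, while those of Gabpa, Elf1 and Etv6 disagree.

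Between tissues, Elf1 (by its brightest probe) and Etv6 (by 1 of its 2 probes) were lower in fetal liver in both fractions. Ets2 was the one member higher there in both. In Fr.B/C it was higher in fetal liver, and Spi1, Spib, Elf1, Elk3 and Etv6 were lower. In Fr.A both Ets2 and Spib were higher in fetal liver, and Elf1 and Etv6 were lower. In Fr.B/C 1 of 9 genes was thus higher and 5 were lower, where 28.5% of all genes passed (13.9% higher and 14.6% lower). In Fr.A 2 were higher and 2 lower, where 29.5% of all passed (12.2% higher and 17.4% lower). The median difference of the 9 was -0.38 in Fr.B/C and 0.05 in Fr.A, beside 0.01 and -0.02 over all genes. With array pairs averaged, the Fr.B/C calls of Spi1, Spib and Elk3 and the Fr.A calls of Spib, Elf1 and Etv6 were lost (limma adjusted p = 0.0513 to 0.196).

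The log2 ratio of Ets2 was 0.21, 0.26, 0.54 and 0.53 in fetal liver Fr.B/C, against -0.96, -0.93, -0.63 and -0.58 in bone marrow Fr.B/C. It was 0.13, 0.14, -0.06 and 0.03 in fetal liver Fr.A, against -0.81, -0.82, -1.12 and -1.07 in bone marrow Fr.A. Every fetal liver array lay above every bone marrow array. The difference was 1.16 ± 0.12 (SE, 2.24-fold, limma adjusted p = 2.46e-06) in Fr.B/C and 1.01 ± 0.12 (2.02-fold, limma adjusted p = 9.66e-06) in Fr.A. Both held in every setting tried, including either pair of arrays alone and either dye alone. Compared number by number, fetal liver exceeded bone marrow by 1.11 to 1.20 in Fr.B/C and by 0.94 to 1.09 in Fr.A. Within each group arrays 1 and 2 lay apart from arrays 3 and 4, in opposite directions in the 2 fractions. The erythroid markers, which were higher in fetal liver as given above, were themselves higher on fetal liver arrays 3 and 4 (2.54 to 2.90) than on arrays 1 and 2 (0.82 to 1.39). On arrays 3 and 4 the level of Ets2 was higher in fetal liver Fr.B/C and lower in fetal liver Fr.A than on arrays 1 and 2. The part of erythroid markers in the Ets2 difference was not tested. The order of the groups for Ets2 ran from fetal liver Fr.B/C through fetal liver Fr.A and bone marrow Fr.B/C to bone marrow Fr.A, and of these neighbours only fetal liver Fr.A and bone marrow Fr.B/C differed (0.83, limma adjusted p = 4.29e-05), a comparison in which 33.9% of all genes passed.

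In Fr.B/C, Etv6 fell by 1.32 ± 0.18 (SE, 2.50-fold, limma adjusted p = 4.59e-05) in fetal liver relative to bone marrow by the probe used, and by 0.73 ± 0.18 (limma adjusted p = 0.00537) in Fr.A. Its other probe differed by -0.06 and -0.25 and did not pass, and with probes averaged the differences were -0.69 and -0.49. By the probe used, the tissues overlapped in Fr.A (highest fetal liver array 1.02, lowest bone marrow array 1.01). Elf1 fell by 0.86 ± 0.11 in Fr.B/C (limma adjusted p = 2.32e-05) and by 0.52 ± 0.11 in Fr.A (limma adjusted p = 0.00159), with no overlap between tissues in either fraction. The probe that spells out the name of Elf1 fell by 0.63 and by 1.32 and passed in both, where 28.1% and 28% of all probes passed, whereas its dim probe (-0.29 and 0.04) did not, and the mean of the probes found by the rule lost the Fr.A call (-0.24, limma adjusted p = 0.0955). Elk3 fell by 0.51 ± 0.14 in Fr.B/C by the probe used (limma adjusted p = 0.0106) and by 0.51 ± 0.13 by its second probe, and was -0.18 ± 0.14 in Fr.A, where it did not pass. For Elf1 and Etv6 alike, fetal liver Fr.A and bone marrow Fr.B/C were neighbours that did not differ beyond their spread (limma adjusted p = 0.759 and 0.43), with bone marrow Fr.A above them and fetal liver Fr.B/C below.

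Spi1 fell by 0.45 ± 0.09 (SE, 1.36-fold, limma adjusted p = 0.00145) in fetal liver Fr.B/C relative to bone marrow Fr.B/C, and by 1.07 with processed signals. In Fr.A it was 0.23 ± 0.09 higher in fetal liver with no overlap, which did not pass (limma adjusted p = 0.0682) unless bone marrow Fr.A array 3 was left out (0.29, limma adjusted p = 0.0244). Spib was higher in fetal liver Fr.A by 0.59 ± 0.12 (limma adjusted p = 0.00152), each of 4 arrays lying above all bone marrow Fr.A arrays. In Fr.B/C it fell by 0.38 ± 0.13 (n = 3 and 4, limma adjusted p = 0.0394), a call lost without bone marrow Fr.B/C array 1 (-0.29) or 2 (-0.35) or fetal liver Fr.B/C array 1 (-0.36) or 3 (-0.34), with processed signals (limma adjusted p = 0.0969) and with the scan session as a random block (limma adjusted p = 0.0791). Its level was highest in bone marrow Fr.B/C, then came the Fr.B/C and Fr.A groups of fetal liver and last bone marrow Fr.A, each neighbour differing at the threshold.

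Ets1, Fli1 and Gabpa did not pass between tissues by the probes used. For Ets1 the difference was -0.11 ± 0.12 in Fr.B/C and 0.05 ± 0.12 in Fr.A, although 2 of the 3 probes that spell out its name were higher in fetal liver Fr.A, by 0.76 and 0.31. For Gabpa it was -0.32 ± 0.17 in Fr.B/C and 0.02 ± 0.17 in Fr.A. Fli1 was 1.81, 1.77, 1.58 and 1.68 in fetal liver Fr.B/C, against 1.01, 0.85, 2.29 and 2.43 in bone marrow Fr.B/C. It was 1.78, 2.04, 1.57 and 1.62 in fetal liver Fr.A, against 1.05, 0.88, 2.35 and 2.14 in bone marrow Fr.A. Bone marrow arrays 1 and 2 thus lay below all fetal liver arrays and bone marrow arrays 3 and 4 above them. These array pairs were scanned in different sessions, and the cause of the split was not tested. On arrays 1 and 2 alone Fli1 was higher in fetal liver by 0.86 in Fr.B/C and by 0.94 in Fr.A, whereas on arrays 3 and 4 alone it fell by 0.73 and by 0.65, each past the threshold. Of all genes 5868 passed in Fr.B/C and 5932 in Fr.A on arrays 1 and 2 alone. On arrays 3 and 4 alone 9279 and 10352 passed, against 6361 and 6592 on all arrays. Most such pairs have correlated residuals, so these p-values may be too small. A second probe that spells out the name of Fli1 was lower on arrays 1 and 2 than on 3 and 4 in every group, whereas in both fetal liver groups the probe used was higher on arrays 1 and 2. The second probe did not pass in any comparison.

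**Figure D4:**
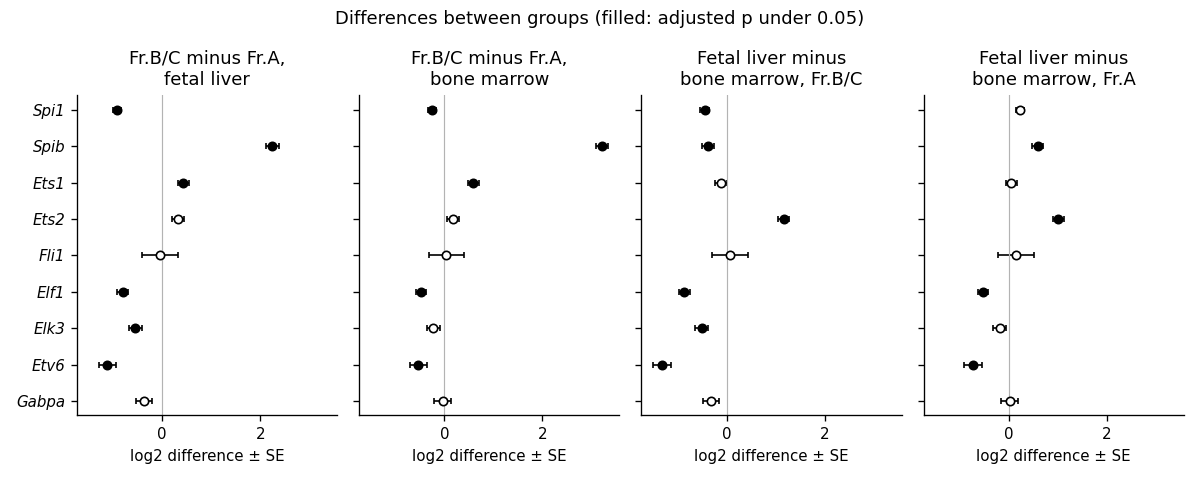
Log2 differences with SE bars (horizontal axes) of the 9 genes between stages in fetal liver and bone marrow and between tissues in Fr.B/C and Fr.A; filled symbols passed at an adjusted p under 0.05. Spib reaches 2.24 and 3.21 between stages, and Ets2 1.16 and 1.01 between tissues.

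Other members of the family were read from a list of 17, of which 12 could be tested. Between stages 1 rose and 2 fell in fetal liver, and 2 rose and 4 fell in bone marrow, where 22.8% and 32.4% of all genes passed. Between tissues 2 were higher and 3 lower in fetal liver Fr.B/C, and 1 was higher and 3 lower in fetal liver Fr.A. Of all genes 28.5% passed in Fr.B/C and 29.5% in Fr.A. Erf, a repressor controlled by ERK, was -0.23, -0.33, 0.00 and 0.13 in fetal liver Fr.B/C, against 0.71, 0.71, 0.59 and 0.60 in fetal liver Fr.A. In bone marrow Erf was -1.60, -1.61, -1.38 and -1.47 in Fr.B/C, against 0.02, -0.02, 0.08 and -0.01 in Fr.A. It thus fell in both tissues, by 0.76 and 1.53, and was higher in fetal liver by 1.41 in Fr.B/C and 0.64 in Fr.A, with an interaction of 0.77 ± 0.14 (limma adjusted p = 0.00268). Etv1, a PEA3-group activator, was -0.85, -0.82, -0.69 and -0.96 in fetal liver Fr.B/C, against -0.50, -0.87, -1.01 and -1.10 in fetal liver Fr.A. In bone marrow Etv1 was -0.30, -0.64, -0.39 and -0.55 in Fr.B/C, against 0.96, 0.96, 0.52 and 0.36 in Fr.A. Bone marrow Fr.A therefore stood alone, and Etv1 fell there by 1.17 with an interaction of 1.21 ± 0.20 (limma adjusted p = 0.00139). Erg, a relative of Fli1 that acts in stem cells, rose by 0.82 in bone marrow Fr.B/C and fell by 0.67 in fetal liver Fr.B/C relative to it (interaction -0.76 ± 0.16, limma adjusted p = 0.00706). Elk4, a ternary complex factor, rose by 0.47 in fetal liver and 0.62 in bone marrow. The others passed in at least 1 comparison with smaller differences: Etv3 (-0.59) and Fev (0.46) between tissues in Fr.B/C, Etv4 (-0.41) and Spic (-0.43) between tissues in Fr.A, Etv4 (-0.54) and Spic (-0.40) between stages in bone marrow, and Etv5 (-0.38) between stages in fetal liver.

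The partners with which PU.1 and Spi-B bind composite Ets-IRF sites were among the genes that changed most in a list of 19 partners, 17 of them tested. Irf4 was 0.94, 1.27, 0.99 and 1.21 in fetal liver Fr.B/C, against -0.51, -0.25, -0.73 and -0.60 in fetal liver Fr.A. In bone marrow Irf4 was 0.46, 0.61, 0.62 and 0.54 in Fr.B/C, against -1.77, -1.73, -1.85 and -1.64 in Fr.A. Irf4 rose like Spib, by 1.63 ± 0.09 and 2.30 ± 0.09 log2 units, and also rose less in fetal liver (interaction -0.68 ± 0.13, limma adjusted p = 0.00368). Irf8 was -0.81, -0.73, -0.79 and -0.77 in fetal liver Fr.B/C, against 0.89, 1.04, 0.73 and 0.77 in fetal liver Fr.A. In bone marrow Irf8 was 1.03, 0.92, 1.03 and 1.17 in Fr.B/C, against 1.66, 1.51, 1.51 and 1.53 in Fr.A. Irf8 fell like Spi1 between stages, by 1.63 ± 0.08 and by 0.51, and fell more in fetal liver (interaction -1.12 ± 0.12, limma adjusted p = 3.32e-05). Between tissues the genes went apart. In Fr.A every fetal liver array of Irf8 lay below every bone marrow array, whereas Spi1 was 0.23 higher there without passing. In Fr.B/C every fetal liver array of Irf4 lay above every bone marrow array, whereas Spib was lower (-0.38). Irf8 also stands in the list of plasmacytoid dendritic cell markers, whose part in its fall was not tested. Across the list 6 rose and 5 fell in fetal liver, where 10.1% of all genes rose and 12.8% fell. In bone marrow 6 rose and 6 fell, where 13.5% of all genes rose and 18.9% fell. Tcf3 (E2A) rose by 1.07 and 1.14, and Gfi1b, an erythroid and megakaryocytic repressor, fell by 2.72 in bone marrow. Between tissues, Myb, a factor of progenitors, fell by 0.73 in fetal liver Fr.B/C and by 1.08 in fetal liver Fr.A, and Tal1, an erythroid factor, was 1.87 higher in fetal liver Fr.B/C.

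**Figure D5:**
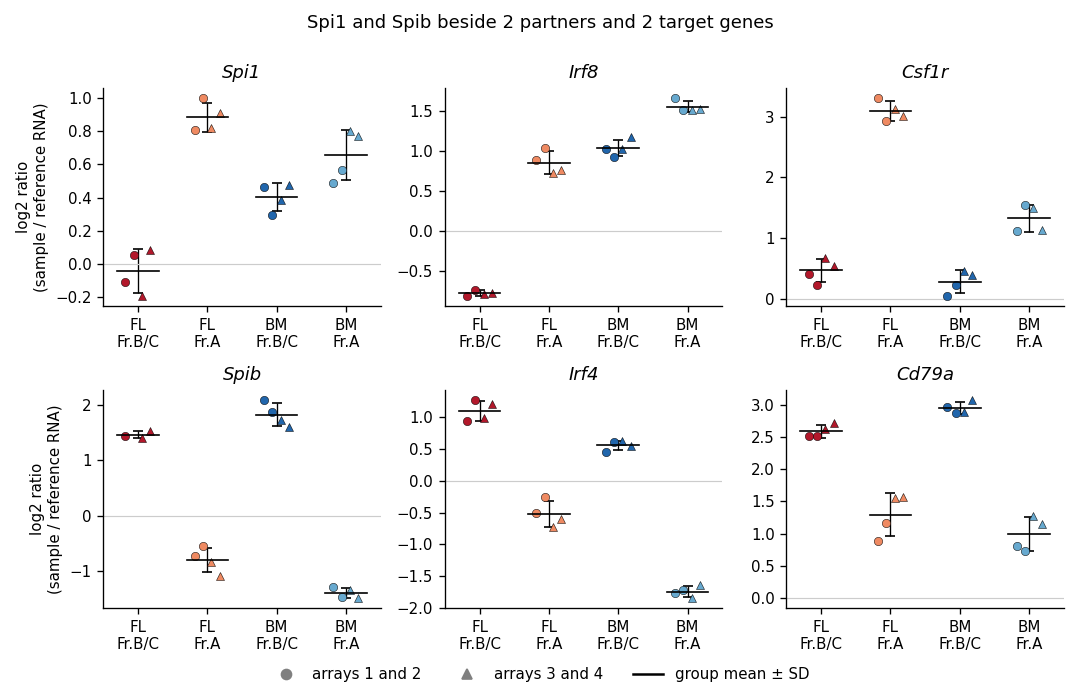
Log2 ratio of sample over reference RNA (vertical axes) of Spi1 and Spib beside their partners Irf8 and Irf4 and beside Csf1r and Cd79a, on each of the 16 arrays by group (FL, fetal liver; BM, bone marrow), with group means and SD; circles are arrays 1 and 2, triangles arrays 3 and 4. Irf8 and Spi1 are lowest in fetal liver Fr.B/C, whereas Irf4, Spib and Cd79a are higher in both Fr.B/C groups than in either Fr.A group.

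Most of the tested genes reported as targets of PU.1 or Spi-B fell between stages in fetal liver. Of the 18 tested of 19, 13 fell and 5 did not pass in fetal liver, where 12.8% of all genes fell, and 2 rose, 8 fell and 8 did not pass in bone marrow, where 18.9% fell. Csf1r, the receptor of M-CSF, was 0.41, 0.24, 0.68 and 0.54 in fetal liver Fr.B/C, against 3.30, 2.93, 3.12 and 3.01 in fetal liver Fr.A. In bone marrow Csf1r was 0.05, 0.22, 0.46 and 0.40 in Fr.B/C, against 1.12, 1.54, 1.50 and 1.14 in Fr.A. It fell by 2.62 ± 0.13 in fetal liver and by 1.04 ± 0.13 in bone marrow (interaction -1.58 ± 0.19, limma adjusted p = 8.43e-05). Whether Spi1 has a part in this was not tested. Fcgr1, a high-affinity Fc receptor, had an interaction of -1.01 ± 0.17 (limma adjusted p = 0.00197). These were the 2 of the 18 whose stage difference differed between tissues. Flt3, a cytokine receptor of progenitors, fell by 3.23 and 2.96, Ncf1, a subunit of the phagocyte oxidase, by 1.83 and 1.54, and P2ry10, a receptor of lysophospholipids, by 1.09 and 1.22. Between tissues, 1 was higher in fetal liver Fr.B/C and 9 were lower there, among them the B-cell genes Cd72 (-1.94) and Fcgr2b (-0.84). Of all genes 13.9% were higher and 14.6% lower in that comparison. In fetal liver Fr.A 2 were higher and 7 lower, where 12.2% of all genes were higher and 17.4% lower. In that fraction Spib itself was higher in fetal liver (0.59) and Spi1 did not pass (0.23). Of this list 6 genes also stand in the myeloid marker list given above, Csf1r and Fcgr1 among them.

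The list of genes reported as targets of Ets1, Fli1, Elf1 or GABP held 15, of which 12 were tested. Between stages 1 rose and 4 fell in fetal liver, where 10.1% of all genes rose and 12.8% fell. In bone marrow 2 rose and 5 fell, where 13.5% of all genes rose and 18.9% fell. Cd79a, a chain of the B-cell receptor with an Ets site in its promoter, rose by 1.30 ± 0.15 and 1.97 ± 0.15. It was the 1 gene of the list that rose in fetal liver, and is also a B-lineage marker. Il2rb, a cytokine receptor chain of NK and T cells, fell by 1.15 and 2.41, and the megakaryocyte gene Gp9 by 1.66 and 1.33. NK markers moved with Il2rb, which stands in their list: 3 of 7 tested fell in fetal liver and 6 of 7 in bone marrow, beside the shares of all genes just given. Their median log2 ratio was -0.22 to 0.02 on fetal liver Fr.B/C arrays, against -0.00063 to 0.08 on fetal liver Fr.A arrays, and 0.03 to 0.14 on bone marrow Fr.B/C arrays, against 1.16 to 1.47 on bone marrow Fr.A arrays, and their part in the Il2rb difference was not tested. Pf4, a platelet chemokine in both the target and the megakaryocyte list, differed by -0.54 in fetal liver (limma adjusted p = 0.175) and rose by 0.80 in bone marrow (limma adjusted p = 0.0297). Of the 5 tested megakaryocyte markers 2 fell in fetal liver, and 1 rose and 3 fell in bone marrow, beside the same shares of all genes. Their median log2 ratio was -0.40 to 0.27 on fetal liver Fr.B/C arrays, against 0.19 to 0.62 on fetal liver Fr.A arrays, and -0.34 to -0.04 on bone marrow Fr.B/C arrays, against 0.06 to 0.51 on bone marrow Fr.A arrays. The part of these markers in the difference of Gp9 was not tested.

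Over the arrays, the genes whose log2 ratio ran most like that of a member were ranked by Pearson's r across the 16 arrays (15 for Spib), after the dye effect was removed. The arrays share their reference RNA and fall into the 4 groups, so for members that differed between groups r mostly reflects the order of group means. The group means of Fli1 were only 1.60 to 1.75, with an SD of 0.74 in bone marrow Fr.A and 0.83 in bone marrow Fr.B/C. For Fli1, r therefore mostly reflects spread within groups. Closest to Spi1 were Fcgr3 (r = 0.971), Lilra6 and Mapk13 (both 0.949), and closest to Spib were Otub2 (0.993), Ifi30 (0.985) and Sit1 (0.983). Ets2 ran with Sh3gl3 (0.982), Maoa (0.981) and Igf2r (0.976), Elf1 with Serpinb1b (0.977), Serpinb1c (0.976) and Fnip1 (0.970), and Etv6 with Tespa1 (0.969), Trex1 (0.966) and Gnptab (0.965). Elk3 ran with Zc3h13 (0.955), Dusp6 (0.915) and BC028528 (0.910), and Ets1 with Ankle1 (0.925), C1qtnf12 (0.913) and Vps45 (0.904). The closest genes were less alike for Fli1 (Usp10 at 0.891, Agtr1a at 0.872 and Nup98 at 0.869) and for Gabpa (Syncrip at 0.868, Zfp72 at 0.865 and Rag2 at 0.860), the members without a call in any comparison.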

How the data were processed

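Total RNA (100 ng per sample) was amplified and labelled with Cy3 or Cy5, and each of the 16 arrays carried a sample and the reference RNA, with the sample in Cy5 on arrays 1 and 3 of a group and in Cy3 on arrays 2 and 4, per the labels. The authors deposited scanner output in intensity units, which per the file headers came from version 8.5.1.1 of Agilent's Feature Extraction; the log10 ratio deposited in the same files (red over green) was not used. They also deposited a table of normalized log2 ratios, for which the sources used here give no method. Set against the scanner values it ran as sample over reference with r = 0.930 to 0.951 and column medians of -0.00731 to 0.0202. The submitters' processing notes name limma. The number of arrays limits the precision.

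From the mean and background intensity, the background was corrected with normexp (offset 50) and arrays were normalized by loess in limma 3.58.1 (R 4.3.3). Control spots had weight 0 and spots marked non-uniform or as population outliers were dropped. A probe was kept if well above background on at least 3 arrays of any group and usable on at least 12, which left 27522 of 41174. Genes were named through RefSeq accessions and symbols in the annotation, and the brightest kept probe stood for a gene, which gave 22327 genes or unnamed transcripts, 13025 of them with a symbol. A limma model of 4 group means and a dye term (11 residual degrees of freedom) gave differences, standard errors (SE) and Benjamini-Hochberg adjusted p-values over all genes per comparison, with a threshold of 0.05. The script was tested on simulated data.

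Each sort gave 1 sample of each fraction, per the labels, which do not tie array numbers to sorts. Residuals of same-numbered arrays correlated at r = 0.249 to 0.381 between fetal liver fractions and 0.422 to 0.518 between bone marrow fractions. The array number within a tissue was therefore also tried as a block. Between tissues, which cannot share a sort, residuals of same-numbered arrays correlated at 0.279 to 0.484 in Fr.B/C and -0.26 to 0.152 in Fr.A. These correlations therefore do not tie numbers to sorts. Residuals of arrays 1 and 2, and of 3 and 4, of a group correlated at r = 0.452 to 0.769, except -0.0475 for fetal liver Fr.A arrays 1 and 2, so p-values may be too small. The 9 members, the gene lists and the tests were chosen with earlier results of these data known, and the lists give no independent support. The text names all members, the other family members that passed, and up to 3 genes per comparison of each other list, by smallest adjusted p. Some genes of these lists are not reported here.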

Additional observations from a re-analysis of the deposited data

Results flagged for a closer look

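The stage difference of Spi1 in fetal liver minus that in bone marrow was -0.67 on the log2 scale, and that of Spib was -0.96. Both were singled out because the test of the difference between tissues passed. The log2 ratio of Elf1 on fetal liver Fr.A array 2 was 0.53, below 0.74 to 0.77 on the other 3 arrays, and its gap made up 0.888 of the group's range. Chance marks about 1 in 20 groups of this size in that way.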

How the results depend on the processing

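The count of the 9 members that passed was 6 for stage in fetal liver, 5 for stage in bone marrow, 6 for tissue in Fr.B/C, 4 for tissue in Fr.A and 2 for the interaction. Leaving out 1 array at a time gave 5 to 7, 3 to 5, 5 to 6, 4 to 5 and 2 to 3. For stage in bone marrow the count was 3 with processed signals, 2 with median centring, 2 with array pairs averaged and 3 when a set term was added to that, and 1 on either dye alone. It was 3 with fetal liver arrays 1 and 2, or 3 and 4, left as the only fetal liver arrays, settings chosen after seeing the data. For tissue in Fr.A the count was 2 with median centring, and 1 with array pairs averaged or on either dye alone. For tissue in Fr.B/C it was 3 with array pairs averaged or on Cy3 arrays alone, and for stage in fetal liver it was 3 on Cy3 arrays alone. For the interaction limma gave 0 with median centring, with array pairs averaged with or without a set term, and on either dye alone, with 2 members at an unadjusted p under 0.05 in each of these. It gave 1 with fetal liver arrays 1 and 2 beside all bone marrow arrays, 1 on arrays 1 and 2 of every group alone and 5 on arrays 3 and 4 alone (chosen after seeing the data). Between tissues on arrays 3 and 4 alone Fli1 reversed, to -0.73 in Fr.B/C and -0.65 in Fr.A, and with kept probes averaged Gabpa reversed to 0.36 between stages in bone marrow. Of the 819 values of single members under settings other than leaving out 1 array, 716 kept their direction and side of the threshold, 84 lost and 16 gained a call, and 3 reversed. Of the 720 that left out 1 array, 697, 18, 5 and 0 did so. Averaged pairs, single dyes and subsets leave fewer values per group, and the cause of the other shifts was not tested.

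Over all genes, 5095, 7227, 6361, 6592 and 1680 passed in the comparisons as ordered above. With median centring 2716, 4253, 4374, 4198 and 443 passed, and the share of higher calls moved to 31.7%, 37.7%, 20.3%, 22.5% and 55.3%, against 44.1%, 41.6%, 48.6%, 41.2% and 60.2%. With array pairs averaged 1818, 3365, 1976, 2489 and 47 passed, and with a set term added 2945, 4763, 3742, 4042 and 252. On Cy5 arrays 1709, 2745, 1672, 2301 and 35 passed, and on Cy3 arrays 1299, 2753, 1546, 2127 and 11. The interaction count was 993 with processed signals, 2679 with the array number across tissues as a block and 3651 with the array number within a tissue as a block. It was 3036 with scan session as a random block and 3355 as a fixed block (chosen after seeing the data). With fetal liver arrays 1 and 2 beside all bone marrow arrays 4033 passed for tissue in Fr.B/C, 2553 for stage in fetal liver and 634 for the interaction, on arrays 1 and 2 of every group 747 passed for the interaction, and on arrays 3 and 4 alone 10352 passed for tissue in Fr.A, 9417 for stage in fetal liver and 7021 for the interaction. The blocks by array number changed no call of a member beyond those of Elk3 and Gabpa given in the report. Signal over background limits Spi1 and Ets1 most, since their probes are dim.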
